A study of Mus musculus with 3 samples.

Results

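Genes for chromatin modifiers and remodellers, 48 of the 55536 annotated genes, were followed in the nuclear RNA of mouse macrophages. They were taken by symbol from a list of histone methyltransferases and demethylases, DNA methylation enzymes, acetyltransferases, deacetylases with the co-repressor Ncor1, acetyl-lysine readers and ATP-dependent remodellers, and all 48 symbols were found in every table. The RNA came from bone marrow-derived macrophages, primary cells of the C57BL/6J strain that had received 100 ng/ml of Lipid A, the active part of bacterial lipopolysaccharide, for 15 min. The labels call the fraction nuclear in one field and nucleoplasmic in another, and ribosomal RNA had been depleted from total RNA rather than poly(A) RNA selected. All 3 libraries were biological replicates of this 1 group; replicate 2 was prepared from 500 ng of RNA and replicates 1 and 3 from 1 µg. Sex and age were not collected, and 1 donor entry is shared by the 3 biosamples, so the spread between libraries may be partly technical. No untreated, later or cytoplasmic sample was analysed here, and no value below is a response to Lipid A.

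Chromatin modifiers add or remove methyl and acetyl groups on histones or DNA, readers bind those marks, and remodellers use ATP to slide, eject or exchange nucleosomes. In macrophages these factors set which inflammatory genes can respond to bacterial products: the complex of Ncor1 with Hdac3 holds many of them down at rest, acetyltransferases and acetyl-lysine readers promote their transcription, and BAF remodellers open the promoters of the slower ones. Many of the proteins are large and act as alternative members of shared complexes, so the balance between paralogues is a common question about them.

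The 3 libraries held 18516063, 17345644 and 20947006 expected counts (replicates 1, 2 and 3), which are model-based numbers of reads per annotated gene. Values of 3 libraries are given in that order throughout. The 48 genes took 0.728%, 0.805% and 0.776% of the counts, and their counts in a library ran from 115 to 14537. Macrophage markers had a median of 246, 281 and 265 TPM (transcript abundance normalised to length and library). Of the markers of other cell types, 0 of 3 for B cells, 0 of 5 for neutrophils and 0 of 3 for erythroid cells reached a mean of 10 counts, and the T cell gene Cd3e, the neutrophil gene Ly6g and the fibroblast gene Pdgfra were at 0 in all 3 libraries. Other markers of these and further lists were present: 1 of 4 T cell genes (Cd4, also known from myeloid cells) reached 10 counts, with a summed level of the list of 39.9, 102 and 84.5 CPM, as did 3 of 4 dendritic cell genes (7.35, 10.6 and 5.87 CPM), 2 of 3 endothelial genes (2.54, 2.13 and 1.67 CPM) and 1 of 3 fibroblast genes (1.51, 1.27 and 0.430 CPM). CPM are expected counts scaled to a common library total.

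All 48 genes averaged at least 10 counts over the libraries. Their median level was 19.5, 21.7 and 16.5 TPM, or 19.2 ± 2.64 (mean ± SD of the library medians, n = 3). The median of 11960 protein-coding genes with the same minimum count was 6.70 ± 1.07 TPM. Means of at least 10 TPM were found for 81.3% of the 48 genes and for 38.4% of the coding genes. A level of 50 TPM or more was reached by 6 genes, 33 genes lay between 10 and 50, and 9 lay under 10. By mean TPM 44 of the 48 genes were above the median coding gene, and 27 were above the upper quartile of those genes. In 33 of the 48 genes TPM was highest in replicate 2. The same share over all coding genes was not counted, so this is not read as a trait of the 48. The median coding gene was at 7.285, 7.34 and 5.46 TPM. Libraries are compared below on CPM, and TPM serves for comparing genes. TPM sums all annotated transcripts of a gene, also short ones that are not protein coding.

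**Figure D1:**
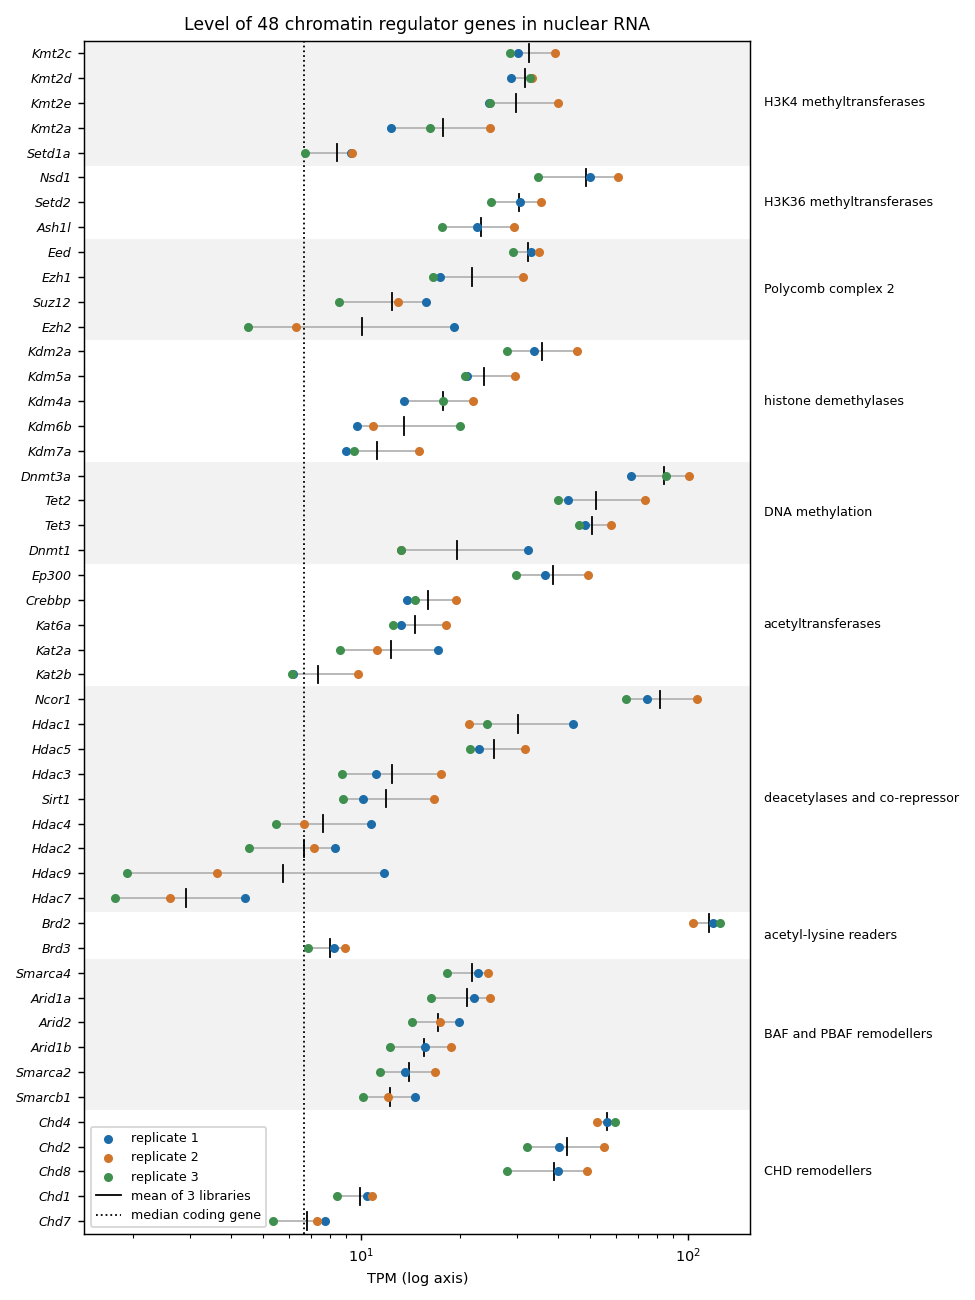
Level of each of the 48 genes in TPM on a log axis, grouped by role and ordered by mean within a role. Coloured points are the 3 libraries, black ticks their mean, and the dotted line is the median coding gene at 6.70 TPM. In TPM, Brd2 stands highest at a mean of 116 and Hdac7 lowest at 2.92.

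The next genes were grouped by symbol as methyltransferases for H3K4, whose methylation marks active promoters and enhancers. The grouping does not say that each protein, Kmt2e among them, has this activity. Kmt2c was found at 30.2, 39.1 and 28.5 TPM. Kmt2d, its paralogue in the enhancer-directed complexes, was at 28.7, 33.2 and 32.8 TPM. The ranges of the 2 genes overlapped. Kmt2e had 24.6, 39.9 and 24.7 TPM, with 9.31% of its exon bases opposite the gene Srpk2, and Kmt2a, the MLL protein of promoters and Hox genes, 12.3, 24.8 and 16.2. Setd1a, a catalytic subunit of the Set1 complex, was lowest of the 5 at 9.27, 9.33 and 6.71 TPM. Its value is uncertain because 51.9% of its exon bases are shared on the same strand with the gene model Gm49388. The median of the role was 27.5 ± 4.96 TPM.

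The H3K36 methyltransferases had a median of 30.4 ± 5.30 TPM. Nsd1, which places the dimethyl mark, was highest at 50.1, 61.2 and 34.6 TPM. Setd2, which places the trimethyl mark behind elongating polymerase, was at 30.7, 35.5 and 24.9 TPM. Ash1l was at 22.6, 29.3 and 17.6 TPM, so that the order Nsd1, Setd2, Ash1l was the same in each library.

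Polycomb complex 2 writes the repressive H3K27 methyl mark through 1 of 2 alternative enzymes, Ezh1 or Ezh2, on a core of Eed and Suz12. Eed, the subunit that binds the mark, was the highest in TPM at 33.0, 34.9 and 29.1, and Suz12 was at 15.8, 13.0 and 8.57 TPM. Of the Eed counts 40.1%, 44.6% and 44.9% fell on short models that keep intron sequence, and short models weigh more in TPM. In CPM, not divided by length, Eed was at 31.0, 27.9 and 30.7, below Suz12 (57.9, 43.9 and 41.55) and Ezh1 (52.7, 83.5 and 68.9). Ezh1 was at 17.5, 31.2 and 16.6 TPM. Ezh2, the enzyme of dividing cells, was at 19.2, 6.29 and 4.51 TPM. Ezh2 was high in replicate 1 alone, where its TPM was slightly above that of Ezh1. In both other libraries Ezh1 was the higher enzyme. In CPM Ezh2 was at 34.4, 10.3 and 9.41, below Ezh1 in every library. Of the Ezh2 counts 48.5%, 51.2% and 40.4% fell on models that keep intron sequence.

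Of the histone demethylases, Kdm2a, which acts on H3K36 at CpG islands, was highest at 33.7, 45.6 and 27.9 TPM. Kdm5a, an H3K4 demethylase, was at 21.1, 29.4 and 20.7 TPM, and Kdm4a, which removes H3K9 and H3K36 methylation, at 13.5, 22.0 and 17.7. Kdm6b, the H3K27 demethylase known as a gene that lipopolysaccharide induces in macrophages, was at 9.72, 10.8 and 20.1 TPM, highest in replicate 3. Kdm7a was lowest of the 5 at 8.99, 15.0 and 9.49 TPM.

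The DNA methylation genes had the second highest median of the 10 roles, 51.6 ± 12.5 TPM. Dnmt3a, a methyltransferase that sets new methylation, was at 66.8, 100.4 and 85.2 TPM. The dioxygenases that start demethylation were close to each other, with Tet2 at 43.0, 73.9 and 40.0 TPM and Tet3 at 48.4, 58.0 and 46.2. Dnmt1, which copies methylation at replication, was at 32.3, 13.3 and 13.2 TPM. Dnmt3a was above Dnmt1 in every library, and Dnmt1 was high in replicate 1.

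Acetyltransferases were at a median of 14.8 ± 2.93 TPM. Ep300, the p300 co-activator of enhancers, was at 36.4, 49.4 and 29.8 TPM and exceeded its paralogue Crebbp in each library, which was at 13.8, 19.5 and 14.6. Kat6a was at 14.6 ± 3.06 TPM (mean ± SD, n = 3). The GCN5 and PCAF genes Kat2a and Kat2b, alternative enzymes of the SAGA and ATAC complexes, were at 17.2, 11.2 and 8.58 TPM and at 6.19, 9.78 and 6.12 TPM.

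Genes for the removal of acetyl groups ran from 2.92 to 81.8 TPM in their means. Ncor1, the scaffold that activates Hdac3, was at 74.7, 106.3 and 64.4 TPM, the third highest mean of the 48. Hdac3 itself was at 11.1, 17.5 and 8.74 TPM. Of the class I enzymes of the Sin3, NuRD and CoREST complexes, Hdac1 was at 44.4, 21.4 and 24.3 TPM and Hdac2 at 8.31, 7.15 and 4.54. Among the class IIa enzymes, which shuttle between nucleus and cytoplasm, Hdac5 led at 22.9, 31.7 and 21.5 TPM. Hdac4 was at 10.7, 6.69 and 5.48 TPM, with 22.4% of its exon bases opposite the gene Gm26720. Hdac9 was at 11.7, 3.62 and 1.92 TPM and Hdac7 at 4.40, 2.59 and 1.76, the lowest mean of the 48. Sirt1, the NAD-dependent deacetylase, was at 10.2, 16.7 and 8.81 TPM. After Ncor1 the highest mean TPM of this role was that of Hdac1, 30.0. In CPM Hdac1, at 58.0, 28.5 and 37.2, was below Hdac5 (62.65, 56.4 and 65.9) in each library.

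By mean TPM the acetyl-lysine readers held the highest gene of the list beside one of the lower ones. Brd2 was at 119, 103 and 125 TPM and its paralogue Brd3 at 8.24, 8.88 and 6.87. In CPM, at 292, 192 and 333, Brd2 was not the highest. Kmt2d (583, 573 and 694 CPM), Tet3, Dnmt3a, Nsd1 and Kmt2c were above it in every library.

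BAF and PBAF remodellers lay in a narrow band from 12.3 to 21.8 TPM in their means. Smarca4, the BRG1 ATPase, was at 22.7, 24.4 and 18.3 TPM and the alternative ATPase Smarca2, or BRM, at 13.6, 16.9 and 11.4. Arid1a was at 22.2, 24.8 and 16.4 TPM and Arid1b at 15.6, 18.8 and 12.2, both DNA-binding subunits of BAF. Arid2, the PBAF counterpart, was at 17.2 ± 2.80 TPM and the core subunit Smarcb1 at 12.3 ± 2.24 (n = 3).

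The CHD remodellers split into 2 levels. Chd4, the NuRD ATPase, was at 56.6, 52.6 and 59.7 TPM, Chd2 at 40.2, 55.3 and 32.2, and Chd8 at 39.9, 48.9 and 28.0. Chd1, which binds H3K4 trimethylation, and Chd7 were at 9.87 ± 1.26 and 6.81 ± 1.27 TPM (n = 3). The 3 higher genes did not overlap with the 2 lower ones in any library. Chd2 shares 18.4% of its exon bases on the same strand with the transcript 1810026B05Rik, so that reads of the 2 cannot be cleanly told apart.

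Of a wider list of 98 chromatin regulators outside the 48, 96 reached a mean count of 10 and the median was 12.6 ± 2.81 TPM, with 61.2% of the genes at 10 TPM or more. Its highest genes were Ogt, the O-GlcNAc transferase, at 163 ± 72.1 TPM, Ehmt2, the H3K9 methyltransferase G9a, at 49.6 ± 2.83 and the deacetylase Sirt7 at 47.8 ± 2.51. Its lowest were Smarca1 and Actl6b, the latter a neuronal BAF subunit, both with 0 counts in every library, and Chd5 at 0.217 TPM. A count of 0 allows up to 0.162, 0.173 and 0.143 CPM in these libraries, by 3 counts and for counting error only.

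Which of a pair of paralogues is more abundant was read within each library, as the difference of log2(TPM + 0.1). With 3 libraries a sign-flip permutation test, exact and two-sided, cannot give a p below 0.25, so no pair can pass a threshold and the values are descriptive. Of 11 pairs, 8 had 1 sign in 3 of 3 libraries, each at p = 0.25 in that exact test, and 5 were at least 2-fold apart in every library. Brd2 exceeded Brd3 by 3.83, 3.53 and 4.17 on the log2 scale, a mean of 14.4-fold. Hdac1 exceeded Hdac2 by 2.12 ± 0.48 (4.35-fold), and Hdac5 exceeded Hdac4 by 1.76 ± 0.59 (3.39-fold). Dnmt3a stood 4.64-fold above Dnmt1, with first-minus-second values for Dnmt1 of -1.05, -2.91 and -2.68. Ep300 was 2.38-fold above Crebbp, at -1.39, -1.34 and -1.02 for Crebbp minus Ep300. The mean of each of these 5 pairs had the same sign in the second transcript table. TPM sums all annotated transcripts of a gene, so these folds are not folds of protein-coding transcripts. In each of the 5 pairs the higher gene had the lower share of counts on such transcripts. Mean shares were 35.1% for Brd2 against 89.25% for Brd3, 60.4% for Hdac1 against 97.2% for Hdac2, and 52.2% for Hdac5 against 81.4% for Hdac4. They were 91.2% for Dnmt3a against 96.8% for Dnmt1, and 76.35% for Ep300 against 94.9% for Crebbp.

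The other 3 pairs of 1 sign were closer. Arid1a over Arid1b was the tightest at 0.44 ± 0.06, and Smarca4 over Smarca2 was 0.65 ± 0.10. The second transcript table, another quantification of the same libraries, turned the Smarca4 and Smarca2 order round to -0.63, and that of Kat2a and Kat2b from 0.71 ± 0.66 to -0.43. For Smarca2, which has 46 annotated transcripts, the deposited TPM lay below the credibility interval deposited with it in all 3 libraries (13.6 against 15.6 to 19.5 in replicate 1). That of Tet3 lay above its interval in all 3 (48.4 against 45.4 to 47.8 in replicate 1). Kmt2c and Kmt2d differed by 0.04 ± 0.22 (exact p = 0.75) and Tet2 and Tet3 by -0.01 ± 0.31 (exact p = 1), with mixed signs. Ezh1 over Ezh2 was -0.14, 2.29 and 1.85, so that replicate 1 stood apart from the other libraries (exact p = 0.5). Without replicate 1 the mean was 2.07, and without replicate 2 it was 0.86. In CPM Ezh1 was the higher in replicate 1 as well (52.7 against 34.4). Kat2a over Kat2b was 1.46 in replicate 1 and had a mean of 0.34 without it.

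**Figure D2:**
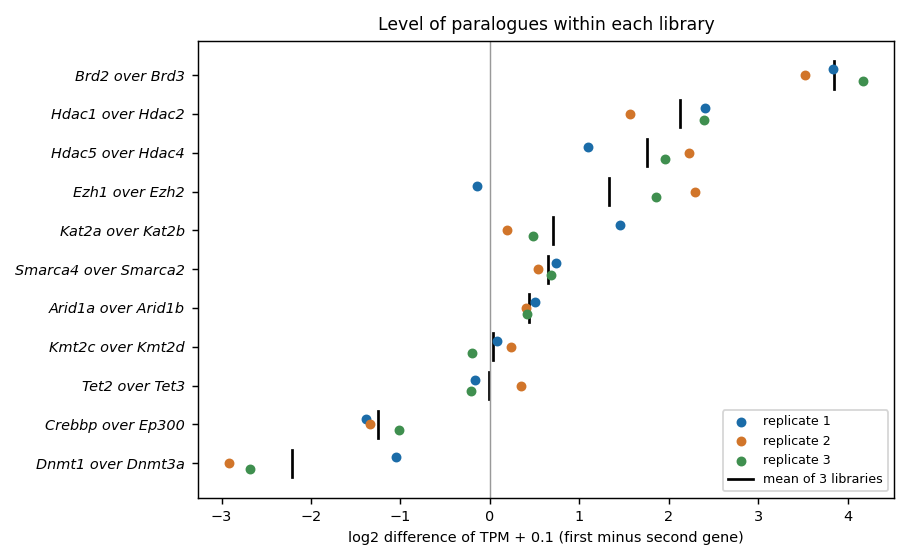
Log2 difference of TPM + 0.1 between the first and second gene of 11 paralogue pairs, with 1 point per library and a tick at the mean. Brd2 over Brd3 is the widest at 3.84 and Dnmt1 over Dnmt3a the lowest at -2.21; the points of Kmt2c over Kmt2d, Tet2 over Tet3 and Ezh1 over Ezh2 lie on both sides of 0.

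Most of the 48 genes differed modestly between the libraries. The SD of log2 CPM, scaled with TMM factors, had a median of 0.21 in the 48 genes. It was 0.32 in all 15876 measured genes (10 or more counts on average), 0.25 in the 8383 genes within the count range of the 48, and 0.20 in the wider list. Without replicate 1 it was 0.10 in the 48 genes. Arid2 had the smallest SD, 0.04, and Nsd1, Chd8, Chd1 and Smarca4 were at or under 0.06. The largest were Hdac9 at 1.20, Ezh2 at 0.96, Kdm6b at 0.73 and Dnmt1 at 0.62.

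A library at least 1.5-fold above or below both others was found for 8 genes, 7 of them in replicate 1. In replicate 1 Dnmt1, Ezh2, Hdac7, Hdac9 and Kat2a were higher than in both others, 5 of 48 genes (10.4%), where the percentage over all 15876 genes was also 10.4. Ezh1 and Kmt2a were lower there, 2 of 48 against 8.46% of all genes. In replicate 3 Kdm6b was higher, 1 of 48 against 4.89%, and none was lower, against 5.74%. Replicate 2 had none above or below both others, against 3.99% and 6.25% of all genes. These shares were near or below the background. The same 8 genes were apart with DESeq2 size factors. Without scaling factors Ezh1 and Kmt2a were not apart, and in the second transcript table Ezh1, Kmt2a and Kat2a were not. Other genes were apart there instead. Without scaling factors these were Hdac1 and Hdac4 above in replicate 1, Brd2 below in replicate 2 and Hdac9 also below in replicate 3. In the second transcript table they were Hdac1 below in replicate 2, and Kmt2d and Chd4 above in replicate 3. At 2-fold, Hdac9 and Ezh2 in replicate 1 (4.86% of all genes were above) and Kdm6b in replicate 3 (1.55%) were left. No gene of the 48 was 2-fold below in replicate 1 (3.22% of all genes) or replicate 3 (1.39%), or 2-fold above or below in replicate 2 (0.857% and 2.22%). The wider list had 5 of 96 genes above and 7 of 96 below in replicate 1.

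The CPM values that follow are without TMM factors and the folds are with them. Hdac9 had the largest departure, at 48.2, 13.1 and 8.55 CPM, 4.10-fold above the mean of the other 2 libraries on the log scale. Ezh2 followed at 34.4, 10.3 and 9.41 CPM, 3.16-fold. Dnmt1 was at 175, 72.4 and 86.4 CPM, 2.01-fold. Hdac7 (15.0, 6.63 and 7.78 CPM) and Kat2a (66.3, 37.5 and 37.7 CPM) were 1.88-fold and 1.60-fold higher. In the opposite direction, Ezh1 was at 52.7, 83.5 and 68.9 CPM and Kmt2a at 258, 380.2 and 356.5, which is 0.631 and 0.636 times the other libraries. The pair of Polycomb enzymes thus differed in opposite directions in replicate 1. Beside these values, all 15 proliferation genes on a separate list (among them Mki67, Top2a and Mcm2) were higher in replicate 1 than in both others, with summed levels of 740, 222 and 249 CPM, a median of 3.76-fold. The part of dividing cells in the values of Ezh2, Dnmt1, Hdac9, Hdac7 and Kat2a was not tested. In bulk RNA, fewer cells of a kind and less RNA per cell cannot be told apart.

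Kdm6b was at 58.4, 70.7 and 133.6 CPM, 2.35-fold higher in replicate 3. On a list of 16 early-response genes such as Fos, Egr1 and Tnf, 15 were higher in replicate 3 than in both others, with summed levels of 5762, 3418 and 7698 CPM, and 12 were lowest in replicate 2. Kdm6b did not share the low of replicate 2, where it lay between the other 2 libraries. Brd2 did, at 292, 192 and 333 CPM. On these values it was more than 1.5-fold below both others in replicate 2, and with TMM factors it was not. The part of the early response in the level of Kdm6b was not tested.

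Many members were lower in replicate 1 by less. Of the 48 genes 28 (58.3%) were below both other libraries there, against 34.8% of all 15876 genes, and 12 (25.0%) were above both, against 36.6%. The median log2 deviation was -0.21, against 0.02 over all genes. Without scaling factors, an alternative chosen after seeing the data, 19 of the 48 were below and 19 above both, against 25.2% and 46.5% of all genes, so these counts move with the scaling. All 5 histone demethylases were below both other libraries in replicate 1, and they were so without scaling factors as well. The same held for 4 of 5 genes of the H3K4 methyltransferase role and 4 of 5 acetyltransferases. In each case it was 3 of 5 without scaling factors. In the deacetylase role 5 of 9 were higher there: Hdac1, Hdac2, Hdac4, Hdac7 and Hdac9. In the wider list 37 of 96 genes (38.5%) were below and 32 (33.3%) above both.

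**Figure D3:**
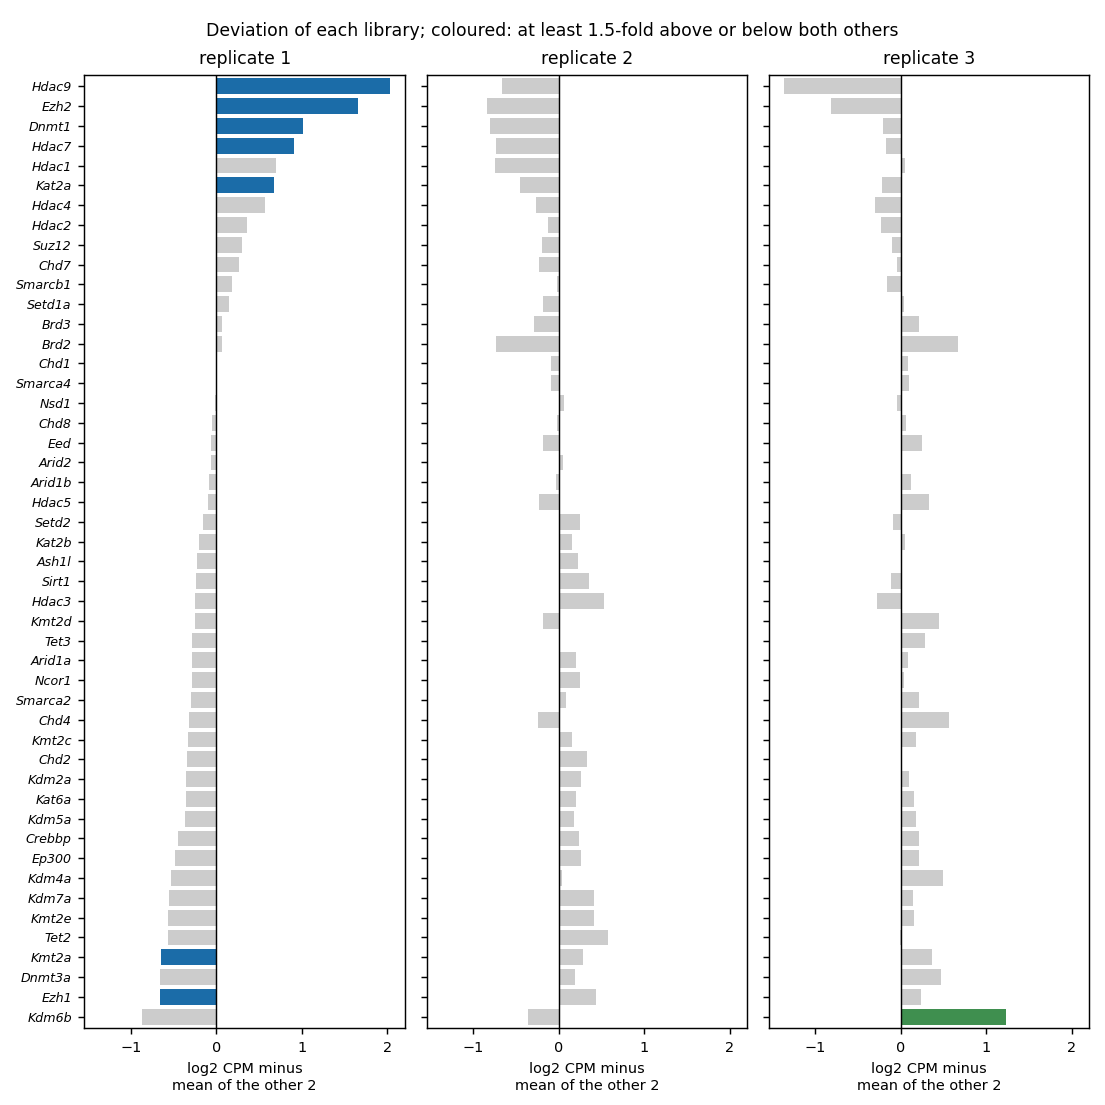
Deviation of each library from the mean of the other 2 in log2 CPM for the 48 genes, ordered by replicate 1. Coloured bars are at least 1.5-fold from both other libraries: Hdac9, Ezh2, Dnmt1, Hdac7 and Kat2a above and Kmt2a and Ezh1 below in replicate 1, and Kdm6b above in replicate 3.

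Promoter windows of RefSeq (GRCm38.p6), from 250 bases before to 50 after each start, were at hand for 35 of the 48 genes, as 49 windows. They were rich in CpG. The median ratio of observed to expected CpG was 0.866, against 0.750 in windows of measured coding genes and 0.384 in all windows, and 77.6% of the 49 windows reached 0.6, against 68.4% and 35.8%. The letters of an E2F site (TTTGGCGC or TTTCGCGC, on either strand) were in 2 of the 49 windows, those of Ezh2 and Dnmt1, or 4.08%, against 1.47% of windows of measured coding genes and 0.813% of all windows. The motifs were chosen after the values of these genes had been seen, and a match describes the letters only. Hdac9, Hdac7 and Kat2a, which were also higher in replicate 1, had windows too, and none of these held the E2F letters. The other windows of Dnmt1 did not hold them either. The 2 windows with a match are shown with the E2F letters of either strand in capitals, read along the strand of the gene. The Ezh2 window is chr6:47594981-47595280 (minus strand) and the Dnmt1 window chr9:20952574-20952873 (minus strand).
Ezh2 promoter: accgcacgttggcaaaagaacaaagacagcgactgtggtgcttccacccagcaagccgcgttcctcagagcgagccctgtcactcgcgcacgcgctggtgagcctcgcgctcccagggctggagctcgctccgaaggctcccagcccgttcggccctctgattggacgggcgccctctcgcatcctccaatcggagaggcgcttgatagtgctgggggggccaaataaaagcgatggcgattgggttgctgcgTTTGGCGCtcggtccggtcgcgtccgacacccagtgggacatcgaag
Dnmt1 promoter: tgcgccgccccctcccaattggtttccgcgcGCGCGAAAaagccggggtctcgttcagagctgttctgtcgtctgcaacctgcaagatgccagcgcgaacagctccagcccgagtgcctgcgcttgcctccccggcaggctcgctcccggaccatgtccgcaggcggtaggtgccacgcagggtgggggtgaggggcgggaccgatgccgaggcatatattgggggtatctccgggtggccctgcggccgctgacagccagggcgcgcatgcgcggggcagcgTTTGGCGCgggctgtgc

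Hdac9, with the largest departure, was the one gene with the TATA letters TATAAA (2.04% of the 49 windows, against 7.07% of windows of measured coding genes). Of the other letters searched, also on both strands, CCAAT was in 13 windows (26.5%, against 37.8%), the YY1 letters AAGATGGCG in 2 (4.08%, against 3.06%), and the ETS letters CCGGAAGT and the CRE letters TGACGTCA in 0 (against 8.40% and 3.07%). No match says only that these letters are not in the window.

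The form of the RNA was read from 465 annotated transcripts of the 48 genes. Of these 234 are typed protein coding, 128 retained intron (models that keep intron sequence), 45 nonsense-mediated decay (models with an early stop codon) and 58 processed transcript. Retained-intron models took 12.5%, 11.6% and 9.53% of the counts of the 48 genes, 11.2 ± 1.51% (n = 3), against 14.6 ± 0.66% over coding genes. Over the 36 genes that have such a model the share was 14.8 ± 1.77%, against 22.6 ± 1.38% over 7094 coding genes that have one. The middle gene had 12.2% among the 36 and 18.9% among the 7094. The share was lowest in replicate 3 for 21 of the 36 (58.3%), against 44.0% of 7092 coding genes with a value in every library. The tables hold counts for annotated models only, and unspliced precursor RNA was not separated from them, so the share is one of models.

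A share of at least 20% in every library was found for 11 of the 36 genes (30.6%), against 41.0% of the 7094 coding genes. They were Smarcb1, Hdac7, Ezh2, Eed, Hdac3, Hdac1, Hdac5, Chd2, Tet2, Brd2 and Hdac9, in order of the share. All but Hdac9, that is 10 of them, also passed in the second transcript table. Smarcb1 had 70.6%, 76.6% and 67.5% of its counts on retained-intron models and Hdac7 61.3%, 77.4% and 70.2%. Of the 9 genes of the deacetylase role 5 were among them (Hdac1, Hdac3, Hdac5, Hdac7 and Hdac9), all 9 of which have such a model. Of the genes in the H3K4 and H3K36 methyltransferase roles, 5 have such a model and 0 of them passed, with Kmt2e at 20.9%, 22.6% and 13.5%. For Chd2 the leading retained model overlaps exons of 1810026B05Rik, and its share of 40.1%, 40.8% and 29.0% is uncertain for that reason.

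**Figure D4:**
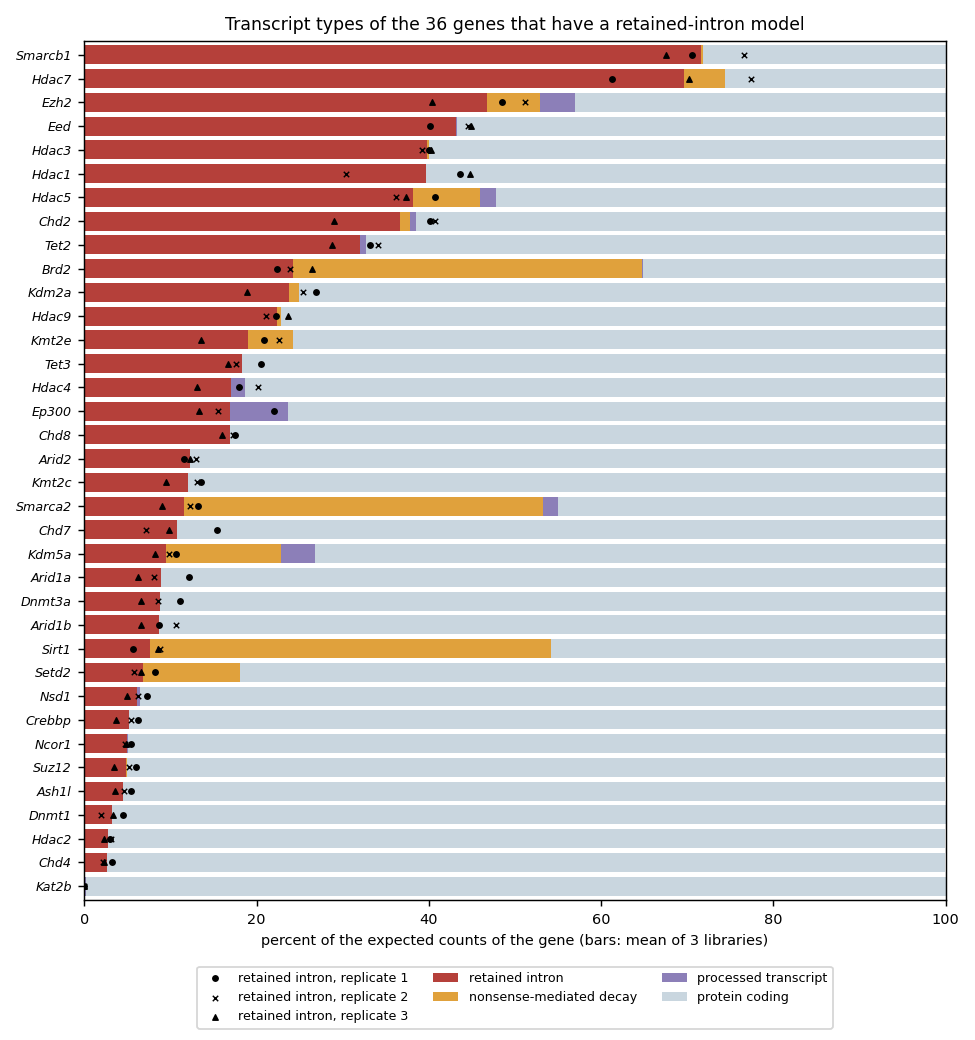
Share of each gene's counts by annotated transcript type, as the mean of 3 libraries, for the 36 genes with a retained-intron model; black marks are the retained-intron share in each library. Smarcb1 and Hdac7 lie above 60% in every library, and Brd2, Smarca2 and Sirt1 carry the widest bars of nonsense-mediated decay models.

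In 8 of the 11 genes the most abundant retained model keeps at least 1 intron whole. The Smarcb1-205 model of 7441 nt is 83.9% intron, keeps 2 introns whole, and held 55.8%, 71.7% and 50.3% of the counts of the gene. Hdac7-213 keeps 1 intron of 1273 nt and Ezh2-207 1 of 1510 nt, with 31.2%, 32.6% and 48.4% and with 30.9%, 31.9% and 22.8% of the counts. Hdac5-216 keeps 9 introns whole. The 5' splice sites at which these introns begin are shown, because a read across them shows the RNA unspliced there. The last 20 exon bases are in lower case and the first 20 intron bases in capitals. In Tet2-208 and Hdac9-209 the intron is kept in part only.
Smarcb1 intron 3, chr10:75915044-75915083 (minus strand): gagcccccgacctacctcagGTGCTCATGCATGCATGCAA
Hdac7 intron 14, chr15:97802056-97802095 (minus strand): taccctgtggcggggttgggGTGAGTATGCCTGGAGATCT
Ezh2 intron 12, chr6:47542346-47542385 (minus strand): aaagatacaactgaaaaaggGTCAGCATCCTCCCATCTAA
Hdac5 intron 23, chr11:102197039-102197078 (minus strand): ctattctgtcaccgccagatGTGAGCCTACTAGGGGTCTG
Hdac1 intron 13, chr4:129516880-129516919 (minus strand): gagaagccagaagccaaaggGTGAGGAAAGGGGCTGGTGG
Brd2 intron 11, chr17:34113157-34113196 (minus strand): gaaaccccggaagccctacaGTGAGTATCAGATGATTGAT
Tet2 intron 7, chr3:133476465-133476504 (minus strand): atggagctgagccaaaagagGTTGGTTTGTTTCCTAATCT
Hdac9 intron 3, chr12:34437117-34437156 (minus strand): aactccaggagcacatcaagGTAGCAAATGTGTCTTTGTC

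Coordinates are GRCm38 (mm10) with GENCODE M21, and introns are numbered along the main coding model. Each of these introns begins with GT. With Chd2 counted, 5 of 9 begin with GTGAG or GTAAG, which pair well with the U1 RNA of the splicing machinery. The Smarcb1 and Ezh2 introns begin with GTGCT and GTCAG. What these letters have to do with the shares was not tested.

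The most abundant transcript was protein coding in 41 of the 48 genes and of another type in 7 (14.6%), against 14.0% of 11960 coding genes. Retained-intron models led in Ezh2 (Ezh2-207), Hdac5 (Hdac5-216), Hdac7 (Hdac7-213) and Smarcb1 (Smarcb1-205). Nonsense-mediated decay models led in Sirt1 (Sirt1-205) and Brd2 (Brd2-207), and a processed transcript in Kat2a (Kat2a-204). The same transcript led in all 3 libraries for 42 of the 48 genes and in both tables for 39. These shares were not counted over other coding genes, so they are not read as a trait of the 48. Single libraries differed for Sirt1 and Ezh2, where the coding models Sirt1-201 and Ezh2-202 led in replicate 3. They did not lead there in the second table. Sirt1-201 held 0.196% against 30.5% for Sirt1-205, and Ezh2-202 14.4% against 25.35% for Ezh2-207. For Hdac5 the coding model Hdac5-202 led in replicate 2. Hdac7-211, also a retained-intron model, led Hdac7 in replicate 2 and in the second table. For Hdac5 the coding model Hdac5-201 led in the second table, at 21.6%, 22.0% and 21.5%. Ranked by mean TPM in place of counts, which favours short models, 11 genes were led by a transcript that is not protein coding.

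Brd2-207 held 40.4%, 39.6% and 40.0% of the counts of Brd2, the steadiest of these shares in the first table. In the second table it led at 31.4%, 25.95% and 34.4%, and Hdac5-216 at 19.9%, 18.2% and 18.5% varied less. Protein-coding models of Brd2 held 36.8%, 35.6% and 33.0%. Sirt1-205 held 52.1%, 57.0% and 30.8% of the counts of Sirt1. Both models differ from the coding model at their ends, where they lack 468 (Sirt1) and 439 (Brd2) bases of an exon of it and Brd2-207 has an end exon of 217 bases of its own. Inside, both include an exon that the coding model skips, and its length leaves a remainder of 2 on division by 3, which shifts the reading frame. In Sirt1 the exon has 125 bases (chr10:63326660-63326784, minus strand) and the stop codon comes 12 bases into it. In Brd2 the exon has 92 bases (chr17:34116598-34116689, minus strand) and the stop codon ends 19 bases into the next exon. Each is shown from the first base of the added exon to the stop codon, in capitals.
Sirt1-205 added exon to stop: aagaaacagcatTGA
Brd2-207 added exon to stop: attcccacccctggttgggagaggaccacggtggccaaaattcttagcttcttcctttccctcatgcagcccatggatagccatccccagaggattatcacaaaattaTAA

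Kat2a-204, the leading transcript of Kat2a, held 33.6%, 57.6% and 35.1% of the counts. The coding model Kat2a-201 held 33.5%, 1.445% and 34.35%, so that the 2 were nearly level in replicates 1 and 3. In replicate 1 of the second table Kat2a-201 was just ahead (32.97% against 32.92%). Kat2a-204 keeps 195 bases inside the gene that Kat2a-201 lacks, and it lacks 292 bases that Kat2a-201 has at an end. Smarca2 had a coding leader by its mean, Smarca2-209, at 19.0%, 32.6% and 46.8%, but the nonsense-mediated decay model Smarca2-202 led in replicate 1 and in the second table.

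Among the other coding leaders, single models held nearly all counts of several large genes. Kmt2d-201 held 96.7%, 98.9% and 98.6%, Kdm7a-201 and Kdm6b-201 at least 95.3% in each library, Setd1a-202 at least 93.0% and Kat2b-201 at least 98.8%. Kmt2a-201, Setd2-201, Nsd1-201, Ash1l-201, Kat6a-201, Arid2-201, Arid1a-205, Chd1-201, Chd7-202, Brd3-202, Kdm5a-201, Kdm4a-204, Ep300-201, Crebbp-201, Hdac4-202 and Dnmt1-201 each held more than 50% in all 3 libraries. So did Kmt2c-201, Kmt2e-201, Ezh1-203, Eed-201, Suz12-201, Tet2-201, Tet3-202, Dnmt3a-201, Hdac1-201, Hdac2-201, Hdac3-201, Chd2-203 and Chd4-202. Lower shares were found for Kdm2a-202, Hdac9-201, Smarca4-204, Arid1b-207 and Chd8-212, which ran from 33.3% to 59.8% in single libraries, and Arid1b-202 was ahead of Arid1b-207 in replicates 1 and 2. In Ncor1, with 25 annotated transcripts, Ncor1-204 held 39.7%, 37.6% and 42.9%. The tables disagreed on the coding leader in further genes. In the second table Kmt2e-202, Ash1l-202, Tet2-204, Dnmt3a-218 and Hdac9-205 led by their means. Kmt2e-201 held 16.3% to 27.1%, Tet2-201 14.5% to 28.8% and Dnmt3a-201 28.2% to 41.4% there. Single libraries of that table went the other way. In replicate 1 Dnmt3a-201 (41.4%) was ahead of Dnmt3a-218 (32.5%) and Hdac9-201 (28.5%) of Hdac9-205 (21.6%). In replicate 2 Ash1l-201 (61.25%) was ahead of Ash1l-202 (31.1%). Ezh1-203 held 60.1%, 52.3% and 67.7% in the first and 0.00223%, 0.389% and 12.7% in the second, where Ezh1-202 led.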

How the data were processed

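Gene and transcript tables deposited by the authors for 3 libraries hold expected counts and TPM, per the file headers, whose column names are those RSEM writes. The credibility bounds of TPM in the deposited gene tables were treated as a score and used only to find levels outside them. A second deposited transcript table holds estimated counts and TPM under the column names of kallisto. The labels name mm10; for program versions and strand use in counting, the sources used here give nothing, so reads of genes that overlap on opposite strands may be mixed. Genes and transcripts were joined to GENCODE M21.

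Rows that name no annotated gene held 1.24%, 0.372% and 0.0642% of all expected counts and were left out of library sizes. Expected counts were rounded and genes averaging under 10 counts were dropped. Values of log2 CPM came from edgeR 4.0.16 (prior count 2, TMM factors 1.07, 1.02 and 0.921), with DESeq2 1.42.0 size factors as an alternative. No model was fitted, since there is 1 group. Levels are described by medians; pairs by log2(TPM + 0.1) with the exact sign-flip test, which understates differences of low genes. Of the 48 genes 15 had gene counts further than 0.005 from whole in some library, that is reads shared with other genes. Intron, exon and promoter letters came from the GENCODE M21 annotation and RefSeq. Every gene of the 48 is named, with those departing by 1.5-fold, those with a retained-intron share of at least 20% in every library and each leading transcript. The wider list is named by its 3 highest and 3 lowest genes. The members and lists were chosen with earlier results of these data known. Alternatives were the second table, other pseudocounts, scalings, filters and folds, and leaving out each library.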

Additional observations from a re-analysis of the deposited data

How the results depend on the processing

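The second transcript table put the median level of the 48 genes at 11.0 TPM in place of 19.2, their retained-intron share at 13.4% in place of 11.2%, Kmt2c minus Kmt2d at -0.0555, Tet2 minus Tet3 at 0.23, Kat2a minus Kat2b at -0.43 and Smarca4 minus Smarca2 at -0.63, the last 4 with the opposite sign; the cause was not tested. Its median log2 ratio to the first table was -0.76, -0.20 and -2.37 in the 3 libraries for the 48 genes, and -0.83, -0.20 and -2.23 for coding genes. On CPM, which is not divided by length, the median was 105 and Kmt2c minus Kmt2d -0.84. Ezh1 minus Ezh2 was 2.16 there, and 10 of the 11 pairs had 1 sign, in place of 8. Other pairs moved on CPM too: Brd2 minus Brd3 to 2.64, Hdac1 minus Hdac2 to 1.30, Hdac5 minus Hdac4 to 0.74, Crebbp minus Ep300 to -0.54, Tet2 minus Tet3 to -0.70 and Smarca4 minus Smarca2 to 1.26. The retained-intron share was 33.0% by TPM and 14.8% over genes that have such a model. A 2-fold limit left 3 genes apart in place of 8, DESeq2 size factors 8 and no scaling factors 9. Ranking by mean TPM gave 11 genes led by a transcript that is not coding, in place of 7.

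With each library left out in turn, Kmt2c minus Kmt2d ran from -0.0635 to 0.16. Tet2 minus Tet3 ran from -0.19 to 0.0909 (0.0722 without replicate 1), so that neither pair had an order in TPM. The median level ran from 18 to 20.6 TPM, the retained-intron share from 10.6% to 12.0% and the median SD from 0.10 to 0.25. The number of pairs with 1 sign was 9 each time. It could not fall below 8, because only 2 libraries then have to share a sign. No paired analysis was possible because the 3 libraries form 1 group. The lowest counts, 115 for Hdac7 in replicate 2 and 163 in replicate 3, limit the shares of its transcripts most.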
